A study of Mus musculus with 32 samples.

Results

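NMDA receptors are ionotropic glutamate receptors of excitatory synapses, and ethanol inhibits their current. Each receptor is a tetramer that holds the obligatory, glycine-binding subunit GluN1, encoded by Grin1, together with glutamate-binding GluN2 subunits, encoded by Grin2a, Grin2b, Grin2c and Grin2d, or GluN3 subunits such as the one encoded by Grin3a. In the adult forebrain GluN2A and GluN2B are known as the main partners of GluN1, GluN2C as mostly a cerebellar subunit and GluN2D as a subunit of early development and of some interneurons. The members were all probes on the array named for these 6 genes, and the question was whether any of them differed in frontal cortex (FCtx) between mice that drank ethanol and controls. Of the 6 genes, 5 had a probe, from 18138 gene symbols on the array, and no probe carried the symbol Grin3a. The 5 genes had 6 probes of 25697, since Grin1 had 2.

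The data came from 32 female F1 hybrid mice of C57BL/6J and FVB/NJ parents, with 1 Illumina MouseRef-8 v2.0 array for each mouse. The 20 ethanol-treated mice chose between water and 20% ethanol in limited sessions in the dark over 20 days, and the 12 control mice were untreated. The model is voluntary drinking in 1 sex, and per the study's methods both directions of the cross were used, which the labels do not tell apart. Chips 1 and 2 held 8 ethanol arrays each, chip 4 held 8 control arrays, and chip 3 held 4 ethanol arrays at positions A, C, E and G with 4 control arrays at positions B, D, F and H. Chip and treatment can therefore be separated only on chip 3, where treatment and odd or even position cannot be told apart.

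Of all probes, 10187 had a detection p-value below 0.01 against negative control beads on at least 24 of the 32 arrays, and these were tested. Between 9480 and 11544 probes were detected per array at that level. The array of control mouse C66 stood apart, with a mean signal over the tested probes of 532 where the other 31 arrays had 955 or more, and results that change without it are given with the value. The tissue is whole FCtx, so fewer cells of a type and less RNA per cell cannot be told apart. Markers of neurons in general were tested for 4 of the 6 genes on the array and markers of cortical projection neurons for 7 of 9.

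The probe sequences show which piece of each transcript was read. Each was 50 bases long, and the first Grin1 sequence is shown because it crosses a splice junction, with capitals for the 18 bases that lie in the second of its 2 genomic blocks.
Grin1 junction probe: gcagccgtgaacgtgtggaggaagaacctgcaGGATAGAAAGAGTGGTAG
Grin1 upstream probe: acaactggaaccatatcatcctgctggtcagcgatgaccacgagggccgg
Grin2a probe: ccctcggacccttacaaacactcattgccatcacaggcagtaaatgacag
Grin2b probe: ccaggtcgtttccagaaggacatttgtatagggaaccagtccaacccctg
The junction probe (ILMN_1216667) starts at base 2650 of its transcript, and the array annotation places its blocks at chr2:25151312-25151343 and chr2:25150051-25150068 on the minus strand, with 1243 bases between them. The sequence in capitals opens the C1 cassette, an exon of the intracellular tail of GluN1 that is included in some transcripts and skipped in others. The upstream probe (ILMN_1253164) starts at base 566, at chr2:25168995-25169044 on the minus strand, in the part that codes for the extracellular amino-terminal domain, before the cassette. The 2 Grin1 probes therefore need not read the same set of transcripts. The Grin2a probe (ILMN_2623457) starts at base 4146 of its transcript, at chr16:9578119-9578168 on the minus strand, and the Grin2b probe (ILMN_2617352) at base 4308, both in the long intracellular tail that binds scaffold proteins. The Grin2c probe (ILMN_2757484) starts at base 4382 and the Grin2d probe (ILMN_2710382) at base 3659. The genome build of these coordinates is not given in the sources used here.

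The 6 probes fell into 3 classes by detection. The Grin1 probes were above background on most arrays, the Grin2c probe on a minority, and the Grin2a, Grin2b and Grin2d probes on none. The Grin1 upstream probe was detected on 29 of 32 arrays, 19 ethanol and 10 control, and was the only probe of the 6 that entered the test. The Grin1 junction probe was detected on 23 arrays, 15 ethanol and 8 control, 1 array short of the minimum of 24. The Grin2c probe was detected on 13 arrays, 6 ethanol and 7 control.

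The Grin2a, Grin2b and Grin2d probes were not well above background on any array. The Grin2a signal ran from 135 to 189 with a median of 161 in the ethanol group and from 131 to 171 with a median of 151 in controls. For Grin2b the range was 145 to 193 with a median of 167 in the ethanol group and 135 to 174 with a median of 156 in controls. Grin2d ran from 122 to 166 in the ethanol group and from 122 to 150 in controls. The lowest signal that counted as detected moved with these values, from 184 to 224 on ethanol arrays and from 160 to 201 on control arrays. As a share of that limit on the same array, Grin2a reached at most 94.1%, Grin2b at most 93.1% and Grin2d at most 84.1%. At the looser detection p of 0.05, Grin2a passed on 2 arrays, Grin2b on 1 and Grin2d on 0. No fold change is given for these 3 probes.

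A signal at background on this array does not show that a transcript is missing. Single probes for Snap25, a presynaptic protein of neurons, and Nefl, a neurofilament protein, were likewise detected on 0 of 32 arrays, although the tissue is cortex. The GluN2 composition of the receptor in these mice was thus not measurable here, and a difference between Grin2b and Grin2a could not be tested.

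**Figure D1:**
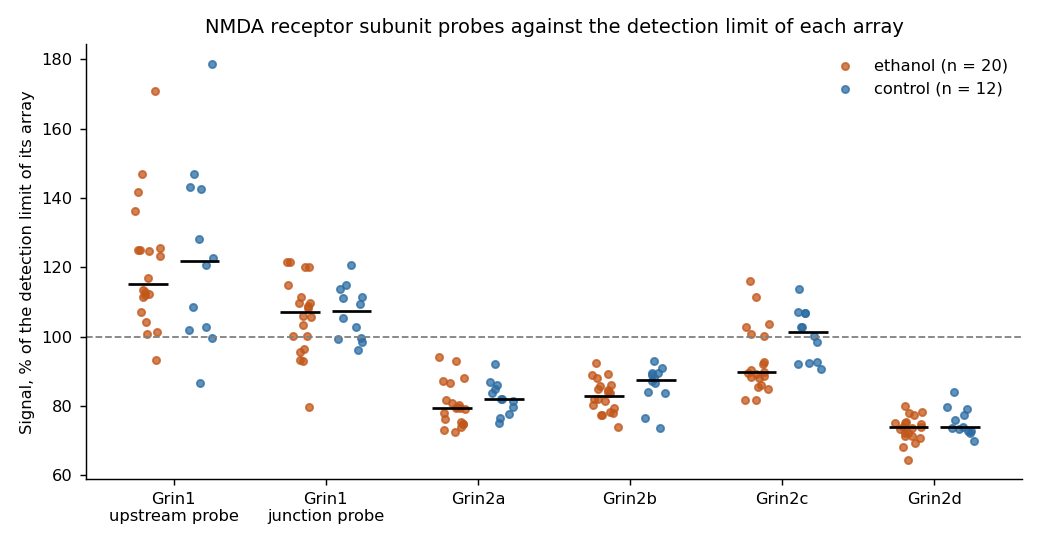
Signal of each probe as a percent of the detection limit of its own array (the lowest signal with a detection p-value below 0.01, dashed line at 100), 1 point per mouse, with the group median as a black bar. The Grin1 upstream probe lies above the line on 29 of 32 arrays, Grin2c on 13, and Grin2a, Grin2b and Grin2d on none.

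No difference in Grin1 between ethanol-treated and control mice passed the test at either probe. The upstream probe had signals of 184 to 361 with a median of 246 in the ethanol group and 159 to 320 with a median of 235 in controls. The ranges overlapped almost fully, and the highest array of each group, mice A29 and C57, stood at 171% and 179% of the detection limit. After normalization its value on the log2 scale was 8.05 ± 0.15 (SD, n = 20) in the ethanol group and 8.09 ± 0.21 (SD, n = 12) in controls. The change was -0.03 (SE 0.06, limma adjusted p = 0.755), with 9 of 20 ethanol mice above the control median. Its 95% confidence interval ran from -0.15 to 0.09, a fold of 0.900 to 1.06 on that scale. Thus 0 of the 1 tested member probe passed an FDR of 1%, of 10% or an unadjusted p of 0.05, where 8.29%, 25.4% and 31.8% of all tested probes did.

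Near background the transformed scale understates a change. With the background removed by normexp, the upstream change was -0.06 (SE 0.20), and the interval widened to a fold of 0.722 to 1.28.

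The junction probe had signals of 157 to 258 with a median of 213 in the ethanol group and 154 to 228 with a median of 194 in controls. As a percent of the detection limit the group medians were 107% in both. The normalized values were 7.93 ± 0.11 (SD, n = 20) and 7.94 ± 0.06 (SD, n = 12). The change was -0.01 (SE 0.03, limma adjusted p = 0.880 in the fit over all 25697 probes), and 10 of 20 ethanol mice lay above the control median. The 95% interval ran from -0.08 to 0.05. With normexp the change was -0.09 (SE 0.14), and the interval widened to -0.37 to 0.20.

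The per-array difference between the 2 Grin1 probes, junction minus upstream, showed no detectable shift with ethanol. It was -0.12 ± 0.17 (SD, n = 20) in the ethanol group and -0.14 ± 0.22 (SD, n = 12) in controls, a shift of 0.02 (two-sided permutation test, p = 0.790). No correlation between the 2 probes over mice was detected, with a Pearson r of 0.06 (permutation p = 0.764) and a Spearman rho of 0.04 (permutation p = 0.826) over 32 arrays. Without mice C57 and A29, the 2 farthest on the upstream probe, r was 0.17. Within the 8 arrays of chip 3 r was -0.03 (permutation p = 0.933), within the 16 ethanol arrays of chips 1 and 2 it was 0.01 (permutation p = 0.970) and within chip 4 it was 0.05 (permutation p = 0.906). Leaving out 2 arrays of each set in the same way gave -0.16 on chip 3, 0.08 on chips 1 and 2 and 0.47 on chip 4. The value for chip 4 thus depended on mice C57 and C59. Over the 6 relations computed, the Benjamini-Hochberg adjusted p was 0.970 for each Pearson r. The error over beads on 1 array was a median of 0.07 (log2) for the upstream probe and 0.08 for the junction probe, against a spread between mice within groups of 0.17 and 0.09. The bead error is on the log2 scale of the raw signal. The spread between mice is on the transformed scale, which understates differences near background. For the upstream probe the spread between mice was larger than the bead error even so. For the junction probe the 2 were not compared on the same scale.

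Grin2c had the only nominal difference of the 6 probes over all arrays, and it did not pass the correction. Its signals ran from 160 to 240 with a median of 183 in the ethanol group and from 158 to 214 with a median of 179 in controls. As a percent of the detection limit the medians were 89.8% and 102%. The normalized values were 7.81 ± 0.10 (SD, n = 20) and 7.89 ± 0.08 (SD, n = 12), and 4 of 20 ethanol mice were above the control median. The change was -0.08 (SE 0.03, limma unadjusted p = 0.0240, adjusted p = 0.179). In the same fit over all probes, 18.6% of probes had an unadjusted p below 0.05, as 1 of the 6 member probes did. With normexp the change was -0.39 (SE 0.15, limma adjusted p = 0.154). The difference was not seen within chip 3, as given next.

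On chip 3, the single chip with both groups, the Grin1 junction probe was higher in the ethanol mice and the other probes were not separated. Its normalized values were 8.05, 8.06, 8.06 and 7.98 in ethanol mice A46, A47, A49 and A50. They were 7.95, 7.94, 7.91 and 7.98 in control mice C52, C54, C55 and C56. The normalized groups did not overlap, though the lowest ethanol value and the highest control value both round to 7.98. The signals before normalization did overlap, with 232, 251, 239 and 200.1 in the ethanol mice and 210.4, 209, 202 and 228 in the controls, so mouse A50 was below all 4 controls. The change was 0.09 (SE 0.03, limma adjusted p = 0.193 over all probes). The exact two-sided permutation test gave p = 0.0286, the smallest that 4 against 4 arrays allow, with no correction for the number of probes. On this chip 15.1% of all probes had an unadjusted p below 0.05, and 5.56% passed an FDR of 10%. Leaving out each of the 8 arrays in turn gave changes of 0.08 to 0.11. With normexp the change of the junction probe on chip 3 was 0.37 (SE 0.10, limma adjusted p = 0.159 over all probes).

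The upstream probe on chip 3 had signals of 271, 236, 249 and 197 in the ethanol mice, in the same order, and of 229, 280, 245 and 246 in the controls. These values overlapped, with a normalized change of -0.03 (exact permutation p = 0.629). Grin2c had normalized values of 7.97, 7.82, 7.76 and 7.89 in the ethanol mice and 7.78, 7.92, 7.78 and 7.92 in the controls, a change of 0.01 (exact permutation p = 0.743). On chip 3 the difference between the Grin1 probes shifted by 0.13 (exact permutation p = 0.143).

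**Figure D2:**
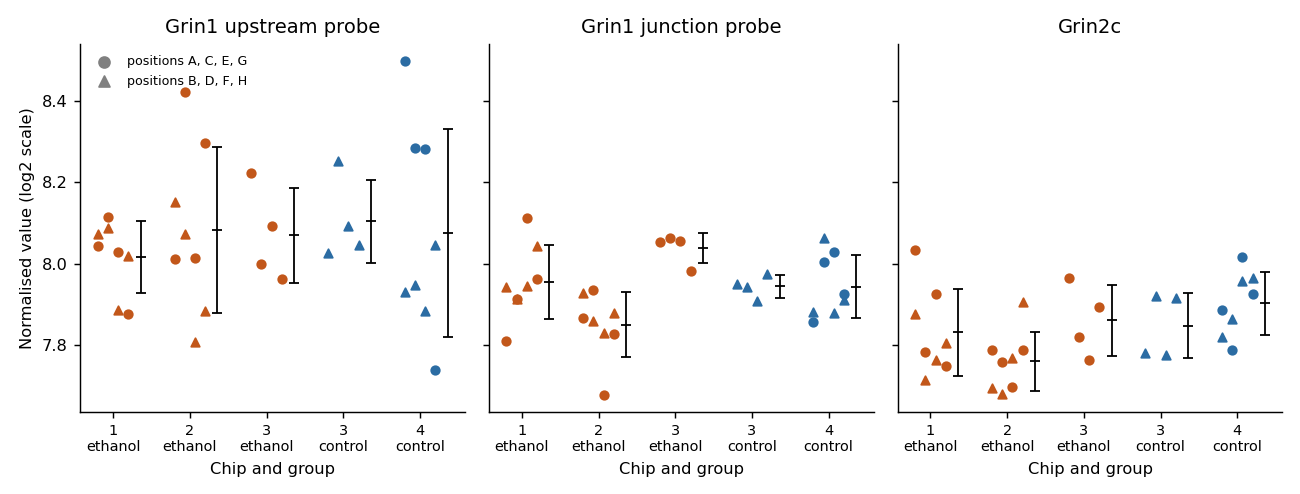
Normalized value (log2 scale) of the 3 probes that were detected on some arrays, by chip and group, 1 point per mouse, with circles for positions A, C, E and G, triangles for B, D, F and H, and bars for the mean ± SD. The 4 ethanol mice of chip 3 lie at 7.98 to 8.06 on the junction probe, but the ethanol mice of chip 2 lie at 7.68 to 7.94.

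The chip 3 difference of the junction probe was not seen on the other chips. Between the 16 ethanol arrays of chips 1 and 2 and the 8 control arrays of chip 4, the junction probe changed by -0.04 (SE 0.04, limma adjusted p = 0.627), the upstream probe by -0.03 (SE 0.08, adjusted p = 0.833) and Grin2c by -0.11 (SE 0.04, adjusted p = 0.0808). Grin2c was the single member probe at an FDR of 10% in that fit, where 12% of all probes were. Treatment and chip cannot be told apart in it. The chip 3 effect minus this one was 0.14 for the junction probe (SE 0.07, limma unadjusted p = 0.0536, adjusted p = 0.378), 0.12 for Grin2c (SE 0.07, unadjusted p = 0.105) and -0.01 for the upstream probe (SE 0.14, unadjusted p = 0.956). None of these differences passed an FDR of 10%, as 4.32% of all probes did.

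Nominal differences by chip and by position were also seen where treatment was constant, and none passed an FDR of 10%. Chip 1 exceeded chip 2, both ethanol, by 0.11 on the junction probe (SE 0.04, limma unadjusted p = 0.0188, adjusted p = 0.383). That gap between 2 ethanol chips compares with 0.09 between the groups of chip 3. With normexp the gap was 0.47, against 0.37 on chip 3. In that fit 9.95% of all probes had an unadjusted p below 0.05, and the junction probe was 1 of 6. Within chips 1, 2 and 4 the upstream probe was lower at even than at odd positions by a log2 difference of -0.15 (SE 0.07, limma unadjusted p = 0.0292, adjusted p = 0.124). Of the tested probes, 28.5% had an unadjusted p below 0.05 for position. In the limma fit for position over all probes, 2 of the 6 member probes did. They were the upstream probe and 1 of the 3 probes that were never detected. The share of all probes in that fit is not given here. The junction probe, with 0.01 (SE 0.03), and Grin2c, with -0.03 (SE 0.03), showed smaller differences by position.

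**Figure D3:**
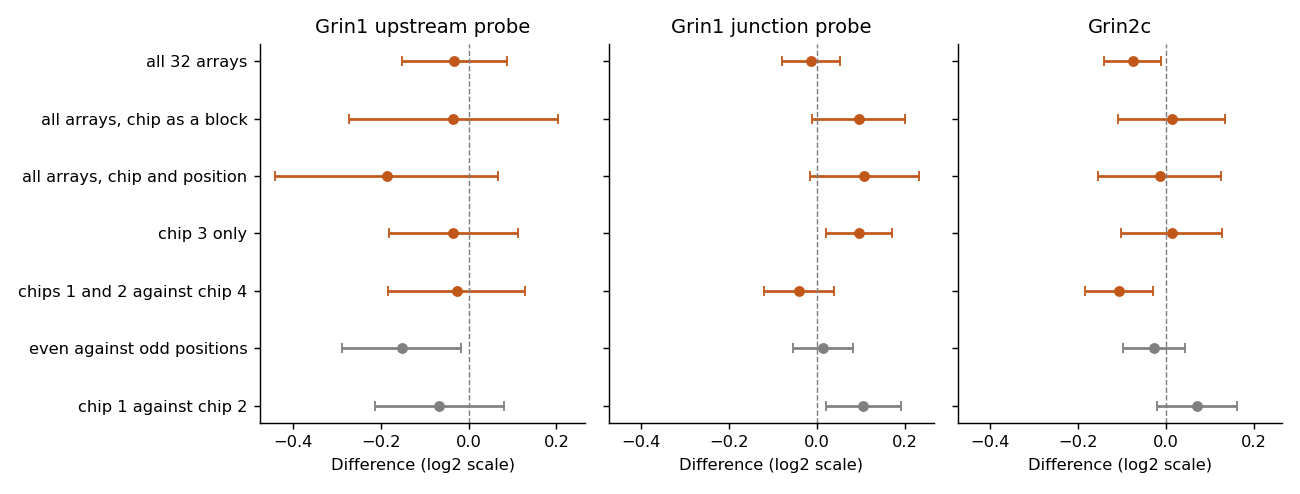
Difference on the log2 scale with its 95% confidence interval from limma for each set of arrays, in orange for ethanol minus control and in grey for even minus odd positions (chips 1, 2 and 4) and chip 1 minus chip 2, where treatment is constant. The intervals of the upstream probe for ethanol include 0 in every row, and those of the junction probe lie above 0 on chip 3 and for chip 1 against chip 2.

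The genes whose values followed the Grin1 upstream probe most closely over the 32 arrays, after the mean of each chip and treatment was subtracted, were Tcof1, Bace1 and Stat3, of 7925 other genes. The Pearson r was 0.88 for Tcof1, a nucleolar protein of ribosomal RNA synthesis, 0.87 for Bace1, the beta-secretase, and 0.84 for Stat3, a transcription factor of cytokine signaling. Without the 2 arrays farthest on Grin1 (C57 and A29), r was 0.81, 0.81 and 0.76. The arrays share their processing and position, so these values are a description. None of the 3 passed the test for ethanol, with limma adjusted p of 0.985, 0.666 and 0.859.

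Proteins around the receptor were better covered than the receptor itself. Of 107 genes in 5 lists of NMDA receptor partners, 97 had a probe and 74 passed the filter (76.3%), and a gene with several tested probes was represented by the brightest. At an FDR of 1%, 7 were higher and 5 lower in ethanol-treated mice, together 12 of 74 (16.2%), where 8.06% of all 7926 tested genes were called (2.99% higher and 5.07% lower). At an FDR of 10%, 14 were higher and 11 lower, where 10.3% of all genes were higher and 14.4% lower. Most calls were lost once chip entered the fit. With chip as a block 1 gene was called, Dlgap3 (limma adjusted p = 0.00706), where 0.265% of all genes were called, and with chip and position 0 were called by limma, where 0.0252% of all genes were (10 of the 74 had an unadjusted p below 0.05, as 9.45% of all genes did). With chip and position in the fit, the changes of called genes were unequal. They were -0.35 for Dlgap3, -0.26 for Src, 0.20 for Nelf, 0.15 for Dlgap1, -0.14 for Crtc1 and 0.11 for Camk2d (limma adjusted p of 0.155 to 0.728). They were 0.05 for Rasgrf1, 0.01 for Prkcb, -0.0064 for Csnk2a2 and -0.01 for Arc, and are not given here for Phgdh and Slc17a7. When arrays were scaled to a common median instead of by quantiles, 1 gene was called, Dlgap1, which was higher, and over all probes that scaling gave 79 higher and 22 lower calls against 366 and 478.

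Among scaffold and anchoring proteins, which hold the receptor in the postsynaptic density, 12 genes were tested, 1 rose and 1 fell at an FDR of 1%, and the median change was -0.05 against -0.01 for all genes. Dlgap3 and Dlgap1 encode guanylate kinase-associated proteins that link PSD-95 to Shank. Dlgap3 ran from 8.59 to 9.05 with a median of 8.85 in the ethanol group and from 8.84 to 9.51 with a median of 9.14 in controls, and 0 of 20 ethanol mice were above the control median. It fell by 0.28 (SE 0.05, limma adjusted p = 0.000345) over all arrays and by 0.51 within chip 3 (adjusted p = 0.00197). Between the other chips its change was -0.19 (adjusted p = 0.0118), and the chip 3 effect minus that one was -0.32 (limma adjusted p = 0.0484). Dlgap1 ran from 7.95 to 8.43 in the ethanol group and from 7.77 to 8.17 in controls, with 19 of 20 ethanol mice above the control median. It rose by 0.23 (SE 0.05, limma adjusted p = 0.00116), and its change within chip 3 was 0.22 (adjusted p = 0.0409). Dlg4, which encodes PSD-95 itself, had a change of -0.20 (limma adjusted p = 0.0491), and was picked for naming after its value was seen.

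Among trafficking and surface partners, 13 were tested and 0 passed an FDR of 1% by limma, while 3 were higher and 1 lower at an unadjusted p of 0.05, where 13.2% of all genes were higher and 17.8% lower. At an FDR of 10% 1 was higher, Exoc4 of the exocyst (0.18, adjusted p = 0.0134). Its change was 0.09 within chip 3 (limma adjusted p = 0.454) and -0.05 with chip and position in the fit (adjusted p = 0.928). The median change was 0.02. Grina, a glutamate receptor-associated membrane protein that is not a channel subunit, had a change of 0.03 (limma adjusted p = 0.563). Exoc4 and Grina were chosen after their values were seen.

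Among kinases, phosphatases and calmodulin, which set receptor phosphorylation and inactivation, 21 were tested, 3 rose and 1 fell at an FDR of 1%, with a median change of 0.02. Src, the tyrosine kinase that raises NMDA receptor current, ran from 8.80 to 9.13 in the ethanol group and from 8.98 to 9.53 in controls, with 0 of 20 ethanol mice above the control median. It fell by 0.29 (SE 0.05, limma adjusted p = 0.000306), and its change within chip 3 was -0.20 (adjusted p = 0.167). Prkcb, a protein kinase C, ran from 13.24 to 13.65 in the ethanol group and from 12.99 to 13.44 in controls, with 20 of 20 ethanol mice above the control median. It rose by 0.24 (SE 0.05, limma adjusted p = 0.000788), and its change within chip 3 was 0.18 (adjusted p = 0.135). But with chip and position in the fit the difference was 0.01 (limma adjusted p = 0.984). Csnk2a2, a catalytic subunit of casein kinase 2, rose by 0.19 (SE 0.05, limma adjusted p = 0.0054), with 0.20 within chip 3 (adjusted p = 0.0555) and -0.0064 with chip and position in the fit. Its second probe gave 0.11 (adjusted p = 0.136), and without mouse C66 the first gave an adjusted p of 0.0130. The third kinase that rose was Camk2d, by 0.18 (limma adjusted p = 0.00289), with 0.04 within chip 3, and its second probe gave 0.08 (adjusted p = 0.0668). Fyn, a tyrosine kinase that phosphorylates GluN2B, had 3 probes, each detected on 0 of 32 arrays.

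Of the signaling and transcription targets downstream, 14 were tested, 2 rose and 2 fell at an FDR of 1%, with a median change of -0.0023. Arc, an activity-induced gene of synaptic scaling, ran from 9.63 to 10.96 with a median of 10.58 in the ethanol group and from 10.33 to 11.29 with a median of 11.06 in controls. No ethanol mouse reached the control median. Arc fell by 0.50 (SE 0.11, limma adjusted p = 0.00218), its change within chip 3 was -0.25 (adjusted p = 0.290) and with chip and position in the fit it was -0.01. Other activity-induced genes of this list were not called over all arrays. Fos, Egr1 and Npas4 each had a change of -0.06 and Bdnf of -0.01 (limma adjusted p of 0.362 to 0.964). They were named after their values were seen. Crtc1, a coactivator of CREB, fell by 0.19 (SE 0.05, limma adjusted p = 0.00733), with -0.23 within chip 3 (adjusted p = 0.0908), and without mouse C66 its adjusted p was 0.0168. Nelf (now Nsmf), which encodes the synapse-to-nucleus messenger Jacob, rose by 0.25 (SE 0.06, limma adjusted p = 0.00197), and a second probe gave 0.41 (adjusted p = 0.00347), but its change within chip 3 was 0.13 (adjusted p = 0.324). Rasgrf1, a Ras exchange factor, rose by 0.15 (SE 0.03, limma adjusted p = 0.00342) at its brightest probe, but its other 3 probes gave -0.11, 0.01 and 0.17, so the probes disagreed, and within chip 3 the brightest gave 0.03 (adjusted p = 0.767).

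Of the genes for co-agonist and glutamate supply, 14 were tested, 1 rose and 1 fell at an FDR of 1%, with a median change of -0.04. Phgdh, the first enzyme of serine synthesis, ran from 8.45 to 8.90 in the ethanol group and from 8.18 to 8.59 in controls, and rose by 0.20 (SE 0.05, limma adjusted p = 0.00234). Within chip 3 its change was 0.10 (adjusted p = 0.301). Slc17a7, the vesicular glutamate transporter of cortical neurons, ran from 11.73 to 12.53 in the ethanol group and from 12.11 to 12.68 in controls. It fell by 0.27 (SE 0.07, limma adjusted p = 0.0044), and by 0.48 within chip 3 (adjusted p = 0.000949). Without mouse C66 its adjusted p was 0.0122.

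**Figure D4:**
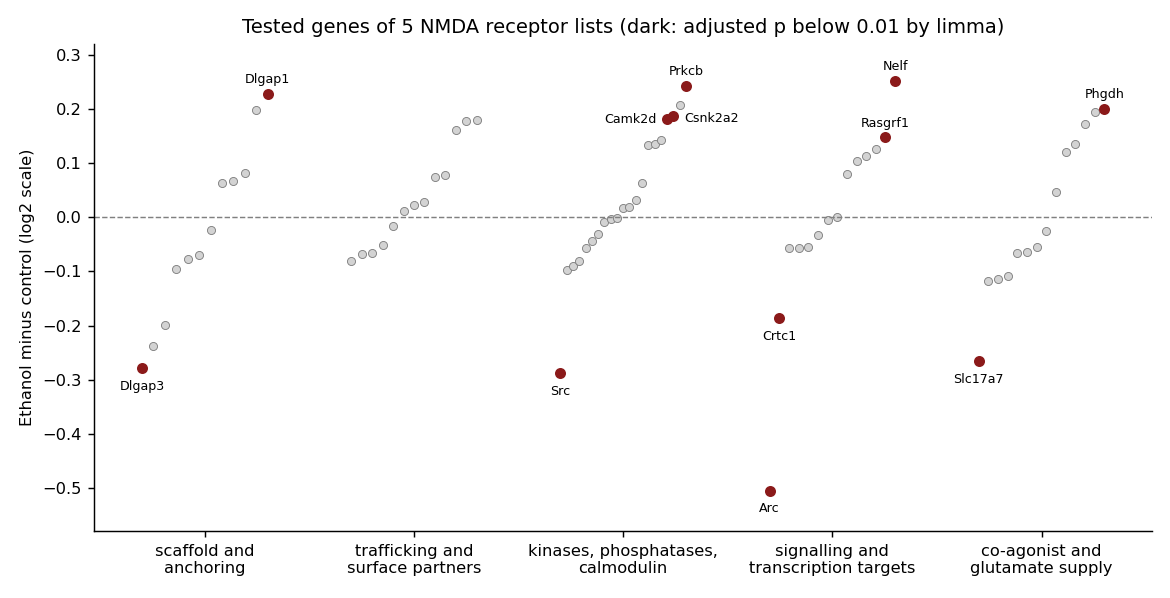
Change with ethanol on the log2 scale (ethanol minus control, all 32 arrays) of the 74 tested partner genes in 5 lists, 1 point per gene in order of its change within the list, with genes at a limma adjusted p below 0.01 dark and named. The 12 dark points are 7 higher and 5 lower, from Arc at -0.50 to Nelf at 0.25.

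Within chip 3 alone, 8 of the 74 partner genes (10.8%) passed an FDR of 1%, where 3.18% of all tested genes did, and Dlgap3 and Slc17a7 were among them. The other 6 were not called over all arrays. Of these, Slc17a6 (0.46), Reln (0.39), Bdnf (0.37) and Slc1a3 (0.37) were higher on chip 3, and Ptk2b (-0.38) and Camk2g (-0.36) were lower. Between the other chips Bdnf (-0.14), Ptk2b (0.10) and Camk2g (0.15) had changes of the opposite sign. These 6 were picked for naming with their values in view. At an FDR of 10%, 8 were higher and 11 lower, together 25.7%, where 17.7% of all genes passed. Markers of other cells and regions also differed on the same chip at an FDR of 10%. Of 10 oligodendrocyte markers tested, 7 were lower in the ethanol mice at an FDR of 10%, with a median change of -0.38, and their summed signal ran from 20756 to 29765 in the ethanol mice and from 27461 to 41201 in the controls. Of 4 olfactory bulb markers tested, of 7 on the array, 3 were higher, with a median change of 0.42 and a summed signal of 3124 to 4184 against 1190 to 2559, while Tbx21 was detected on 1 array and Synpr on 0. Over all arrays these lists had median changes of -0.04 and 0.14. Of 6 GABAergic interneuron markers tested, 3 were higher on chip 3, with a median change of 0.22 and a summed signal of 19853 to 24672 against 18567 to 21272, among them Gad1 (0.61, limma adjusted p = 0.0013) and Dlx1 (0.59, adjusted p = 0.00138), while Gad2 and Lhx6 were detected on 0 arrays. Of 7 cortical projection neuron markers, 2 were lower and 1 higher on chip 3, with a summed signal of 9238 to 12312 against 11507 to 13150. Over all arrays 3 of these 7 were lower at an FDR of 1%, where 5.07% of all tested genes were lower. They were Tbr1 (-0.34, limma adjusted p = 0.000319), Nrn1 (-0.22, adjusted p = 0.00139) and Fezf2 (-0.16, adjusted p = 0.00627). Another 1 of the 7 was higher at an FDR of 10%, where 10.3% of all genes were higher. None of the 4 general neuron markers passed an FDR of 10% by limma on chip 3 or over all arrays, and 1 had an unadjusted p below 0.05 over all arrays. Of 6 astrocyte markers tested, 2 were higher on chip 3 at an FDR of 10%, as were 2 of 5 endothelial markers. Of 7 microglia markers, 1 was lower on that chip. The median chip 3 changes of these 3 lists were 0.02, 0.02 and -0.03. The markers named here were likewise picked with their values in view. The part of these markers in the partner gene results was not tested.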

How the data were processed

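FCtx RNA of 32 mice was hybridized to Illumina MouseRef-8 v2.0 arrays. The authors deposited bead signal intensities that are not normalized, with no background subtraction visible, a detection p-value for each probe, and as other values the bead standard error and number of beads. The array software behind them is not given in the sources used here, and the submitters' processing notes name lumi and limma. All columns matched a mouse by its label.

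A variance-stabilizing transform written after the one in lumi was computed from the bead errors, followed by quantile normalization (R 4.3.3, the package data.table, version 1.17.8, MASS 7.3.60.0.1). limma 3.58.1 was fitted over the 10187 probes detected (p below 0.01) on 24 or more arrays, with no covariate, and Benjamini-Hochberg adjustment. Values of member probes under that filter come from the same fit on all 25697 probes, an alternative chosen after seeing the data. Permutation tests used 100000 resamples, or all regroupings on chip 3 (Python 3.11.15, scipy 1.17.1, numpy 2.4.6, pandas 2.3.3, matplotlib 3.10.9). The transform and the fits were tested on simulated data. Every member probe is named, and in each list the 2 largest increases and 2 largest decreases at an FDR of 1%, besides genes marked in the text. For Grin1 the 3 most correlated genes are named. Snap25, Nefl, Fyn and Camk2d were named after their values were seen. The number of arrays and signal over background limit the precision. Per the study's methods every extraction batch held both groups, which the labels do not tie to arrays. The members, lists and marker genes were chosen with earlier results of these data known, and the partner gene lists are textbook lists that were not tested as sets.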

Additional observations from a re-analysis of the deposited data

Results flagged for a closer look

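Of 15 sets of 4 or 8 arrays of 1 chip and treatment, examined for the 3 probes detected on some arrays, 2 held an array far from the others, where chance gives about 1 in 20. Both were the lowest value of the Grin1 junction probe. Among the 8 ethanol mice of chip 2, mouse A32 had 7.68 on the log2 scale, a signal of 157, where the next lowest was 7.83. Among the 4 ethanol mice of chip 3, mouse A50 had 7.98, a signal of 200.1, where the next lowest was 8.05. Without A50 the change on chip 3 was 0.11 in place of 0.09 (limma adjusted p = 0.130 in place of 0.193).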

How the results depend on the processing

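At an FDR of 1%, the count of member probes called was 0 in each of the 6 comparisons under every alternative run, and 0 to 0 when each array of chip 3 was left out, but it covers 1 tested probe, or 6 without the detection filter. At an FDR of 10% it was 0 over all arrays and 1, Grin2c, between chips 1 and 2 and chip 4 without that filter. That call was lost with median scaling (limma adjusted p = 0.192) and kept with the log2 signal (0.0620) and normexp (0.0627). Over 11 alternatives the upstream change stayed negative, from -0.19 to -0.01, with limma adjusted p of 0.464 to 0.939. The junction change kept its sign in 9 and reversed to 0.094 with chip as a block and to 0.107 with chip and position. Grin2c kept its sign in 10 and reversed to 0.013 with chip as a block. The difference between the Grin1 probes reversed to -0.028 with normexp. The 12 partner genes called became 1 with median scaling, 1 with chip as a block and 0 with chip and position, and 9 without mouse C66. The causes were not tested, but the fit with chip alone as a block takes the ethanol change from the 8 arrays of chip 3, and the fit with position also uses the position difference on the other 24. No member probe was detected on all 32 arrays, so that filter gave no value. The Grin2b minus Grin2a difference and its alternatives were not run, since neither probe passed the filter, and the probe difference on tested probes alone was not run, since Grin1 had 1. No paired analysis was possible because the groups share no mouse numbers.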
